A study of Mus musculus with 2 samples.

Results

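Heat shock proteins and DnaJ co-chaperones were examined in small hepatocytes (SHs) and mature hepatocytes (MHs) of the mouse liver. The genes were taken by symbol, as Hspa, Hspb, Hspd, Hspe, Hsph, Hsp90, Dnaja, Dnajb or Dnajc followed by a number, and 8 symbols of pseudogenes ending in -ps were left out. This gave 72 of the 43280 gene symbols in the tables. By the usual location of their proteins, 37 were assigned to the cytosol and nucleus, 8 to the mitochondrion, 8 to the lumen of the endoplasmic reticulum (ER), 5 to the ER membrane and 14 to other or uncertain sites.

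RNA-seq of poly(A) RNA was available for 1 library of MHs and 1 library of SHs, both from C57BL6 mice labelled as 20 weeks old, with no transgene or drug named. Both cell types were freshly obtained from the liver by collagenase perfusion, and per the labels they came from the same mice. MHs were the pellet of a low-speed spin, cleared of dead cells on Percoll and not sorted. SHs, described in the labels as hepatocyte progenitors, came from the supernatant and were sorted by FACS for ICAM-1 and against CD31, CD45 and EpCAM. The methods name several mice but 1 set of cells, and give a younger age range for the animals of the study. Whether RNA of several mice was pooled was not stated, and neither library has a replicate.

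Chaperones bind unfolded or partly folded proteins and help them to fold, to cross membranes or to be degraded. Hsp70 proteins do so in cycles of ATP binding and hydrolysis, DnaJ proteins (Hsp40) deliver clients and trigger that hydrolysis, and nucleotide exchange factors such as the Bag and Grpel proteins release the client. Hsp90 acts later on clients such as kinases and steroid receptors, the Hspd1 and Hspe1 chaperonin folds proteins inside the mitochondrial matrix, and small heat shock proteins hold unfolded proteins without ATP. In heat or proteotoxic stress, heat shock factor 1 (HSF1) induces cytosolic and mitochondrial chaperones through heat shock elements. Unfolded protein in the ER induces the ER chaperones through the ER stress element. Hepatocytes secrete most plasma proteins and hold a large ER.

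The promoter stretches that carry these elements are shown for a few ER and heat-shock members, because the results below are ordered by these branches. They come from the RefSeq promoter table of mouse build GRCm38.p6 (mm10), which holds 250 bases before and 50 bases after each start of transcription and covered 58 of the 72 genes. The ER stress element was searched on both strands as CCAAT, any 9 bases and CCACG, and the heat shock element core as GAANNTTC or TTCNNGAA, with overlaps counted. Capitals mark the matched letters. In Hsp90b1, of which 2 elements were found, the second lies on the opposite strand and its letters read CGTGG and ATTGG. The stretch of Hspa5 lies before its RefSeq start. It falls inside the gene in the GENCODE M21 annotation of mm10, where Hspa5 begins at 34771970. Hspa5 (chr2:34772020-34772048, plus strand), Hsp90b1 (chr10:86705513-86705676, minus strand) and Dnajc3 (chr14:118937807-118937865, plus strand) were the members with an ER stress element:
Hspa5: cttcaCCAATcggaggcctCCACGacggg
Hsp90b1: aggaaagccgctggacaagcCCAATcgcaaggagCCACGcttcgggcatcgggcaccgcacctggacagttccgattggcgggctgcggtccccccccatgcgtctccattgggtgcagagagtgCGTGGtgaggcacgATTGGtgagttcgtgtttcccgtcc
Dnajc3: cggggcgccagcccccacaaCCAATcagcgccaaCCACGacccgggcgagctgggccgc

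The heat shock element core is shown for Hspa1a (chr17:34972233-34972280, minus strand) and Hspa1b (chr17:34959315-34959362, minus strand), the pair of stress-inducible Hsp70 genes, and for Hspe1 (chr1:55088053-55088082, plus strand). The stretch of Hspe1 holds 3 overlapping matches and lies before the start of Hspe1 at 55088148. Hspd1, on the opposite strand, has 2 starts in the table. The stretch lies before the start at 55087932, which is 216 bases from that of Hspe1, and after the start at 55088243, where it falls inside the Hspd1 gene:
Hspa1a: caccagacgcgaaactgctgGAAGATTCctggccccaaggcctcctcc
Hspa1b: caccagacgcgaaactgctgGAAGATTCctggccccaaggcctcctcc
Hspe1: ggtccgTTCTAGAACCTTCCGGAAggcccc

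The 300-base windows of Hspa1a and Hspa1b differed at 4 bases, and the stretches shown are identical. Their coding sequences, of 1923 and 1926 bases, were 99.4% identical, with 8 different bases and a gap of 3. Reads of these genes could therefore be exchanged in counting, and their sum is given beside the single values. The heat shock element core was found in 16 of the 58 members with a promoter (27.6%) and in 4587 of all 27025 genes with a promoter (17.0%). Among textbook HSF1 targets, 7 of the 8 with a promoter held it, with Dnajb1 as the exception, while Hspa8, Hsp90aa1 and Hsp90ab1 were not in the table. The ER stress element was found in 3 of the 7 ER lumen members with a promoter (42.9%) and in 37 of all 27025 genes (0.137%). A match is a description of the letters and does not show that a factor binds there.

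Counted reads numbered 16979136 for MHs and 42356444 for SHs, on 19954 and 23512 genes, so low levels were measured more precisely in SHs. Levels are given in reads per 1000000 counted reads (RPM), and 3 reads correspond to 0.177 RPM in MHs and 0.0708 in SHs. Ratios are log2 of SHs over MHs after 0.5 reads were added to each count, with a 95% Clopper-Pearson interval in parentheses. With 1 library per cell type no test was possible, and the intervals cover counting error only, in reads that carry no molecular identifiers. "Higher" and "lower" below therefore compare these 2 libraries. Hepatocyte markers were close in both, with log2 ratios from -0.19 for Apoa1 to 0.13 for Alb over 6 genes. All 6 endothelial markers were lower in SHs and summed to 59.6 RPM in MHs and 3.66 in SHs. The macrophage list summed to 11.7 and 0.637 RPM, with 5 of 6 genes at least 2-fold lower, and the stellate cell list to 18.8 and 2.03 RPM, with 5 of 5 testable genes at least 2-fold lower. The bile duct markers Krt19 and Krt7 had 1 read each in both libraries, the 3 red blood cell genes 0 reads in MHs and 15 in SHs, and the 3 lymphocyte genes 9 and 6. All 6 pericentral (zone 3) genes were lower in SHs, with a median log2 ratio of -1.83, and all 8 periportal (zone 1) genes were higher, with a median of 0.36. Fewer cells of a type and less RNA per cell cannot be told apart in such bulk samples.

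The chaperone genes together took nearly the same part of the counted reads in both libraries, 0.503% in MHs (0.499 to 0.506) and 0.483% in SHs (0.481 to 0.485). The log2 ratio of the summed reads was -0.06 (-0.07 to -0.05). Of the 72 genes, 62 had at least 10 reads over both libraries and were given ratios. The other 10 were not detectable or nearly so. No read was counted in either library for Dnajb3, Dnajb7, Dnajb8, Hspb2, Hspb3 and Dnajc5b, and 1 read in all for Hspb7, Hspb9, Dnajb13 and Dnajc5g. For these 6 genes the depth allows a level of up to 0.177 RPM in MHs and 0.0708 RPM in SHs. Several of the 10 are known from muscle or testis.

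The median log2 ratio was 0.02 over the 62 chaperone genes and 0.02 over all 15521 genes with at least 10 reads. The interval lay wholly above 0 for 11 of the 62 chaperone genes (17.7%), against 16.8% of all genes, and wholly below 0 for 13 (20.97%), against 15.5%. A change of at least 2-fold with an interval on that side was found upwards for Dnajc6 alone, against 2.00% of all genes, and downwards for Hspa12b alone, against 4.46%. Among the 48 chaperone genes with at least 200 reads, Dnaja3 was the only gene at least 1.5-fold higher, against 1.86% of 9608 genes, and 0 were at least 1.5-fold lower, against 2.10%. These shares lie near those of all genes, and the chaperone genes had more reads, with a median of 1015.5 over both libraries against 416, which narrows their intervals. With at least 200 reads, the lowest and highest chaperone ratios were -0.57 for Hspb1 and 0.59 for Dnaja3. The 5th and 95th percentiles of all such genes, a narrower measure than a full range, were -0.40 and 0.42.

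**Figure D1:**
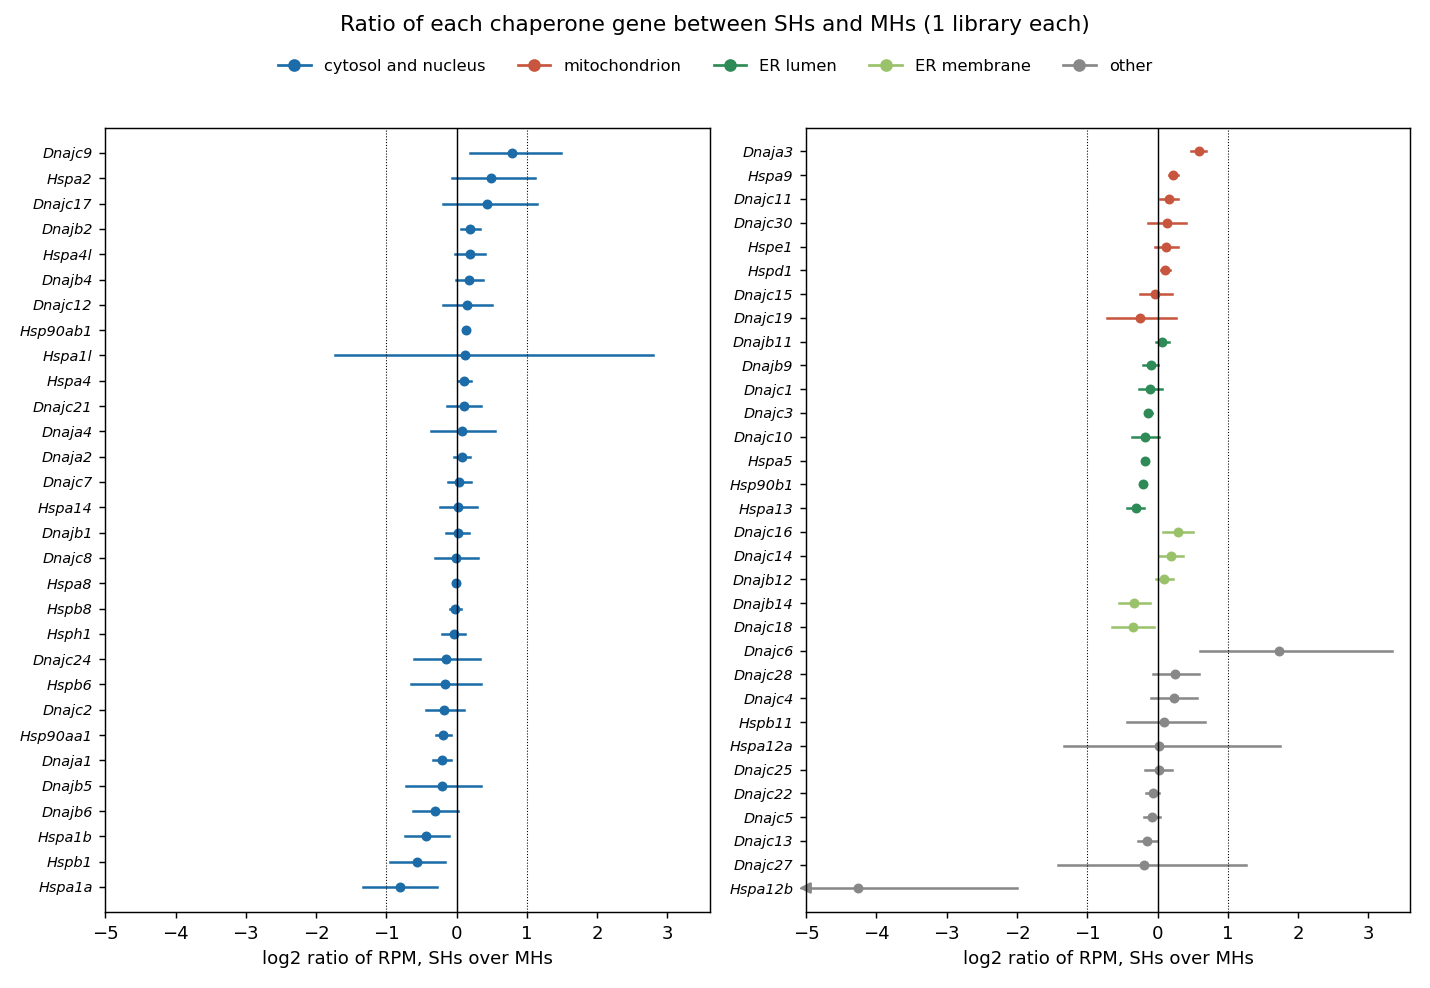
Log2 ratio of RPM in SHs over MHs for each of the 62 chaperone genes with at least 10 reads, with cytosolic and nuclear genes on the left and all others on the right, coloured by compartment. Points are ratios, bars are 95% intervals of counting error, dotted lines mark 2-fold, and the arrow marks an interval that runs past the axis. Most genes lie near 0, with Dnaja3 at 0.59 and Hspa12b at -4.26.

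Levels between genes were compared per exon length, in RPM per kilobase of exon (RPKM), with lengths from the GENCODE M21 annotation of mm10. Hspa5, the Hsp70 of the ER lumen (BiP), was at the top, with 374 RPKM in MHs and 329 in SHs. It was followed by Hsp90ab1, the constitutive cytosolic Hsp90, with 168 and 185 RPKM, by Hsp90b1, the Hsp90 of the ER (GRP94), with 156 and 135, and by Hspa8, the constitutive cytosolic Hsp70 (HSC70), with 106 and 106. The order of these 4 genes was the same in both libraries. The next places were close together. Dnajc3 had 57.5 RPKM in MHs and 52.4 in SHs, the small heat shock protein gene Hspb8 55.0 and 54.2, and Hspd1 54.2 and 58.6, so that Dnajc3 went from the 5th to the 7th place and Hspd1 from the 7th to the 5th. Dnajc22, a membrane DnaJ protein with few described functions, had 41.2 and 39.3 RPKM, and Hspa9, the mitochondrial Hsp70, 38.6 and 45.1. The inducible Hsp70 genes were far down this order, with 1.07 and 0.613 RPKM for Hspa1a and 2.73 and 2.03 RPKM for Hspa1b.

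**Figure D2:**
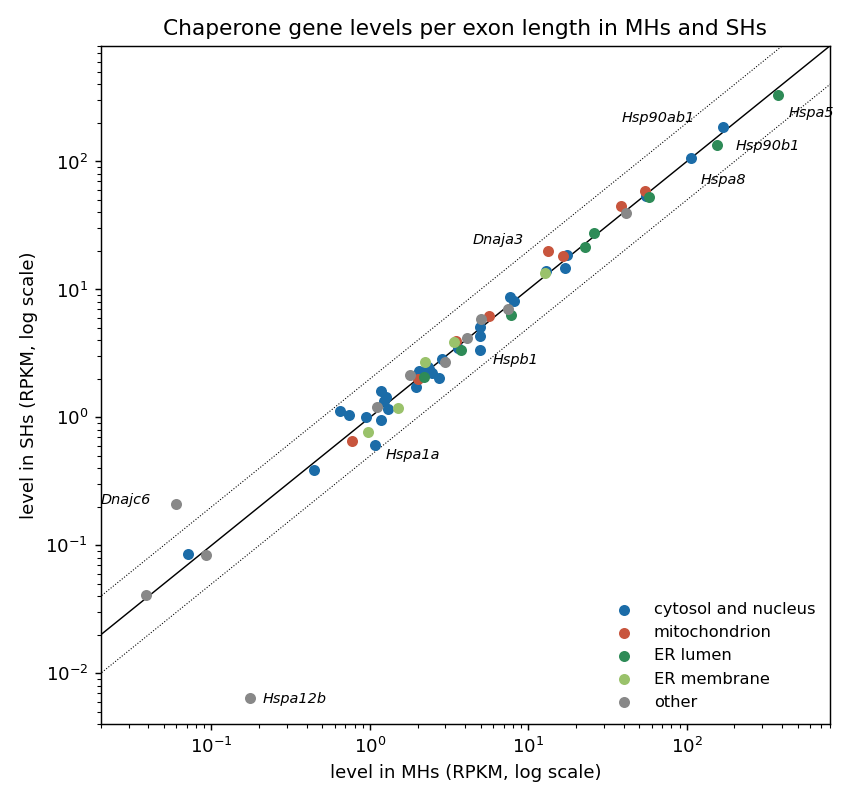
Level per exon length in MHs (x axis) and SHs (y axis), in RPKM on log scales, for the chaperone genes with at least 10 reads, coloured by compartment. The solid line marks equal levels and the dotted lines 2-fold; Hspa5 is at 374 and 329 RPKM, and Dnajc6 and Hspa12b are the points outside the dotted lines, both below 1 RPKM.

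The ER lumen genes were lower in SHs for 7 of 8 members. Their median log2 ratio was -0.15, beside 0.02 over all genes, and the interval lay below 0 for 4 and above 0 for none, where 15.5% and 16.8% of all genes did so. The ER lumen genes had a median of 4242.5 reads over both libraries against 416 for all genes, which narrows their intervals. Summed over the 8 genes, the level was 2747 RPM in MHs and 2433 RPM in SHs, a log2 ratio of -0.18 (-0.19 to -0.16), and it was -0.16 without Hspa5. The differences were small per gene, at most 1.24-fold.

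Hspa5 binds nascent proteins in the ER lumen and holds the stress sensors of the ER membrane inactive. It had 26862 reads in MHs and 59008 in SHs, or 1582 and 1393 RPM, a log2 ratio of -0.18 (-0.20 to -0.16). Hsp90b1, which folds integrins and Toll-like receptors, had 10683 and 23021 reads, or 629 and 544 RPM, with -0.21 (-0.24 to -0.18). Both genes hold an ER stress element shown above, and both were lower in SHs by more than counting error. So was the other gene with that element, Dnajc3 (P58IPK), an ER co-chaperone of Hspa5, with 295 RPM in MHs and 269 in SHs and a ratio of -0.13 (-0.18 to -0.09). Hspa5, Hsp90b1 and Dnajc3 had the most reads of the compartment, 85870, 33704 and 16419 over both libraries, and so the narrowest intervals. Dnajc10, in whose promoter no such element was found, had a lower ratio than Dnajc3, -0.17, from 1031 reads. Hspa13, a Hsp70-like protein of microsomes, had 53.2 and 42.9 RPM and the lowest ratio of the compartment, -0.31 (-0.43 to -0.19). Its promoter was not among those searched. A link between the element and the ratios was not tested.

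The other ER lumen genes had intervals that included 0. Dnajc10 (ERdj5), a disulfide reductase that helps degrade misfolded proteins, had 18.9 RPM in MHs and 16.8 in SHs, with -0.17 (-0.37 to 0.02). Dnajb9 (ERdj4), a co-chaperone that represses the sensor IRE1, had 58.4 and 54.5 RPM, with -0.10 (-0.21 to 0.01), and Dnajc1 (ERdj1) had 25.7 and 24.0 RPM, with -0.10 (-0.26 to 0.07). Dnajb11 (ERdj3), which binds unfolded clients together with Hspa5, was the exception in direction, with 84.4 and 88.6 RPM and a ratio of 0.07 (-0.02 to 0.16).

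The 5 ER membrane DnaJ genes did not share a direction, with 3 above and 2 below 0, and the log2 ratio of their summed reads was 0.06 (-0.02 to 0.14). Dnajc16 had 14.5 RPM in MHs and 17.8 in SHs, with 0.29 (0.08 to 0.50), and Dnajc14 had 22.3 and 25.5, with 0.19 (0.02 to 0.37). Dnajb14 had 15.3 and 12.2 RPM, with -0.33 (-0.55 to -0.11), and Dnajc18 had 8.30 and 6.52, with -0.35 (-0.65 to -0.05). Dnajb12 and Dnajb14 are related proteins that recruit Hspa8 to the ER surface for the degradation of membrane proteins. Their ratios differed in sign, since Dnajb12 had 42.8 and 45.7 RPM, with 0.09 (-0.03 to 0.22). Exons of Dnajc14 overlap those of Ormdl2 on the opposite strand over 17.0% of their length, and whether counting used the strand was not stated.

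ER partner genes outside these families, a list of 9, had a median log2 ratio of -0.06. Of their intervals, 3 lay above and 5 below 0, beside 16.8% and 15.5% of all genes. Their median of 8679 reads, against 416 for all genes, narrows these intervals. Calr (calreticulin), a lectin chaperone of glycoproteins, had 974 RPM in MHs and 937 in SHs, with -0.06 (-0.08 to -0.03). Hyou1 (GRP170), which releases nucleotide from Hspa5, had 476 and 493 RPM, with 0.05 (0.01 to 0.09). The ratios of this list ran from -0.18 for Sdf2 to 0.18 for Sdf2l1, both MIR-domain proteins of the ER lumen.

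The mitochondrial genes were higher in SHs for 6 of 8 members. Their median log2 ratio was 0.13, and the interval lay above 0 for 4 and below 0 for none, where 16.8% and 15.5% of all genes did so. Their median was 1976.5 reads. Their summed level was 449 RPM in MHs and 522 RPM in SHs, a log2 ratio of 0.22 (0.18 to 0.25). Dnaja3 made up a part of this, and the ratio was 0.16 without it.

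Dnaja3 (Tid1), the mitochondrial DnaJ protein that works with Hspa9, had 886 reads in MHs and 3323 in SHs, or 52.2 and 78.5 RPM. The SH level was higher, with a log2 ratio of 0.59 (0.48 to 0.70), and it was the only chaperone gene with at least 200 reads past 1.5-fold. Small portions of its exons overlap other genes, 4.09% with Vasn on the same strand and 3.91% with Coro7 on the opposite strand. Vasn had 236 and 525 reads, and Coro7 had 178 and 556.

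Hspa9 (mortalin), which pulls proteins into the matrix and folds them, had 2825 and 8235 reads, or 166 and 194 RPM, with 0.22 (0.16 to 0.29). Hspd1 (Hsp60), the chaperonin ring, had 2430 and 6553 reads, or 143 and 155 RPM, with 0.11 (0.04 to 0.18). Its lid, encoded by Hspe1 (Hsp10), had 415 and 1131 reads, or 24.4 and 26.7 RPM, with 0.13 (-0.04 to 0.29). The ratios of this neighbouring pair lay within each other's intervals. Their exons overlap by 112 bases on opposite strands, in the transcripts of Hspd1 that begin at its farther start.

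Dnajc11, a protein of the complexes that shape cristae, had 37.3 RPM in MHs and 41.9 in SHs, with 0.16 (0.03 to 0.30). Dnajc30 had 9.42 and 10.3 RPM, with 0.13 (-0.13 to 0.40). Dnajc15 and Dnajc19, DnaJ proteins of the inner membrane import motor, were the 2 members below 0, with -0.03 (-0.25 to 0.20) and -0.25 (-0.72 to 0.26), and the latter rested on 53 reads in MHs and 112 in SHs.

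Mitochondrial partner genes, a list of 7, had a median of 0.10, with 3 intervals above and 2 below 0, beside 16.8% and 15.5% of all genes. The median of this list was 2156 reads against 416 for all genes, which narrows its intervals. Trap1, the mitochondrial Hsp90, had 127 RPM in MHs and 140 in SHs, with 0.14 (0.07 to 0.21), and Lonp1, the matrix protease, had 106 and 122, with 0.21 (0.13 to 0.29). The exchange factors of Hspa9 differed in sign, with 0.23 (0.13 to 0.34) for Grpel1 and -0.36 (-0.55 to -0.16) for Grpel2.

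**Figure D3:**
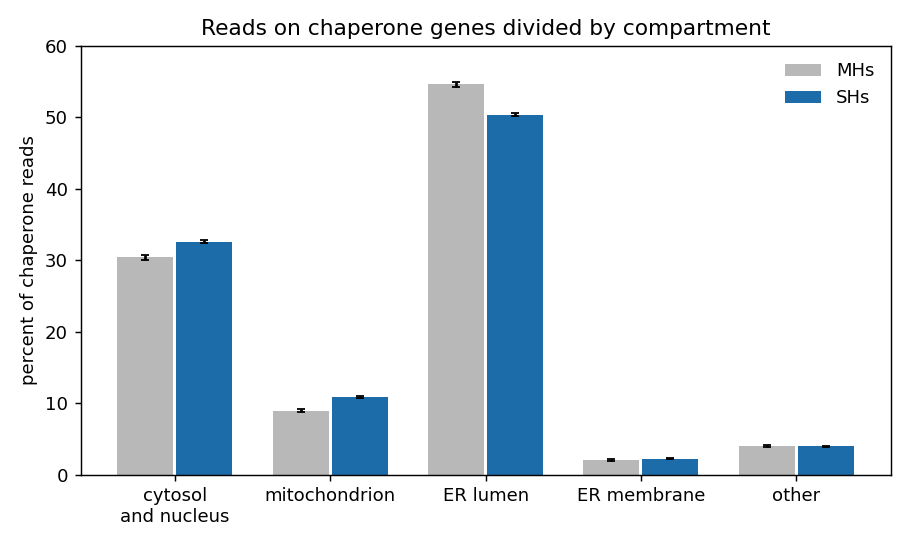
Share of the reads on all chaperone genes, in percent, taken by each compartment in MHs (grey) and SHs (blue), with 95% exact binomial intervals of counting error. The ER lumen took 54.7% in MHs and 50.4% in SHs, the mitochondrion 8.93% and 10.8%.

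As a share of all chaperone reads, the ER lumen took 54.7% in MHs (54.3 to 55.0) and 50.4% in SHs (50.2 to 50.6). The mitochondrial genes took 8.93% (8.74 to 9.13) and 10.8% (10.7 to 10.9), and the genes of the cytosol and nucleus 30.4% and 32.6%. ER membrane genes took 2.05% and 2.23%, and the remaining genes 3.96% and 3.99%. The intervals of the 4 named compartments did not overlap between the libraries, while those of the other genes did. These shares add to a whole, so a lower share of the ER lumen raises the others.

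The genes of the cytosol and nucleus did not move in a common direction. Of 30 with at least 10 reads, 16 lay above and 14 below 0, with a median of 0.02 and with 4 intervals above and 5 below 0, beside 16.8% and 15.5% of all genes. Their summed level was 1528 RPM in MHs and 1574 RPM in SHs, a log2 ratio of 0.04 (0.02 to 0.06), and this sign was set by Hsp90ab1, since the ratio without it was -0.0072.

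The constitutive and inducible forms of Hsp90 differed in sign. Hsp90ab1 (Hsp90-beta) had 8564 reads in MHs and 23528 in SHs, or 504 and 555 RPM, with 0.14 (0.10 to 0.18). Hsp90aa1 (Hsp90-alpha), which is more strongly induced by stress, had 1129 and 2470 reads, or 66.5 and 58.3 RPM, with -0.19 (-0.29 to -0.09). Their intervals do not overlap.

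Among the Hsp70 genes, the inducible forms were lower and the constitutive form was level. Hspa8 had 7775 and 19253 reads, or 458 and 455 RPM, with -0.01 (-0.05 to 0.03). Hspa1a had 54 and 77 reads, or 3.18 and 1.82 RPM, with -0.81 (-1.33 to -0.28), and Hspa1b had 130 and 241, or 7.66 and 5.69 RPM, with -0.43 (-0.74 to -0.11). Together these inducible genes had 184 reads in MHs and 318 in SHs, or 10.8 and 7.51 RPM, with -0.53 (-0.80 to -0.26), a value that is free of any exchange of reads within the pair. Hspa4, a Hsp110 exchange factor for Hsp70, had 71.4 and 77.2 RPM, with 0.11 (0.02 to 0.21), and its relative Hsph1 had 26.1 and 25.3, with -0.04 (-0.20 to 0.12). Hspa2, known for its role in the testis, had 33 and 117 reads, with 0.49 (-0.06 to 1.11). Reads of Hspa1l, a Hsp70 gene beside Hspa1a, were 3 and 9, and 71.9% of its exons overlap Gm10501 on the opposite strand.

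Among the small heat shock proteins, Hspb8, which works with Bag3 in selective autophagy, was the most abundant per length, and it had 1822 and 4477 reads, or 107 and 106 RPM, with -0.02 (-0.10 to 0.06). Hspb1 (Hsp25), an inducible holdase, had 87 and 147 reads, or 5.12 and 3.47 RPM, with -0.57 (-0.95 to -0.16), and so was 1.48-fold lower in SHs.

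Among the cytosolic DnaJ genes, Dnaja1, a partner of Hspa8, had 728 and 1578 reads, or 42.9 and 37.3 RPM, with -0.20 (-0.33 to -0.07). Dnajb1 (Hsp40), the stress-inducible partner of Hsp70, had 439 and 1106 reads, or 25.9 and 26.1 RPM, with 0.01 (-0.15 to 0.18). Dnajb2 had 32.6 and 37.3 RPM, with 0.19 (0.06 to 0.34). Dnajc9, a histone chaperone that recruits Hsp70 and is linked to DNA replication, had the highest ratio of the compartment, 0.79 (0.19 to 1.49), or 1.73-fold, from 26 reads in MHs and 114 in SHs.

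The 11 textbook HSF1 targets among the chaperone genes were then taken as a group. Of these, 4 lay above and 7 below 0, with a median of -0.04, and the interval lay above 0 for 2 (Hsp90ab1 and Hspd1) and below 0 for 5 (Hspa1a, Hspb1, Hspa1b, Dnaja1 and Hsp90aa1). The shares of all genes were 16.8% above and 15.5% below 0, at fewer reads per gene than the 1546 of this group's median. The log2 ratio of their summed reads had the opposite sign, 0.05 (0.02 to 0.07). Most of these reads were on Hsp90ab1, with a ratio of 0.14, and on Hspa8, with -0.01. The positive sign thus came from Hsp90ab1 and the other genes above 0, and not from Hspa8. Hspa1a, Hspa1b and Hspb1, the members with the lowest ratios, were also those with the fewest reads in the group. The endothelial, macrophage and stellate cell lists given above were lower in SHs too, and their part in these values was not tested. The factor itself, Hsf1, had 8.89 RPM in MHs and 9.25 in SHs, with 0.05 (-0.22 to 0.34), Hsf2 had -0.18 (-0.40 to 0.04), and Hsbp1, which binds HSF1 and dampens it, had 34.5 and 41.2 RPM, with 0.26 (0.12 to 0.39).

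Immediate-early genes, which respond to the handling of cells, were set beside the inducible chaperones because the libraries differed in preparation. Of 15 with at least 10 reads, 11 lay above 0 and 4 below, with a median of 0.11 and with 8 intervals above and 4 below 0, beside 16.8% and 15.5% of all genes. Their median of 8678 reads narrows these intervals far more than the 416 of all genes. The ratios ran from -0.43 (-0.49 to -0.37) for Btg2 to 1.48 (1.36 to 1.60) for Socs3. Fos, a component of the AP-1 factor, had 193 RPM in MHs and 295 in SHs, with 0.61 (0.56 to 0.67). The part of cell isolation and sorting in the chaperone ratios was not tested, and it cannot be told apart from the cell type.

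Cytosolic partner genes, a list of 21, lay above 0 for 18, with a median of 0.16. The interval lay above 0 for 13 and below 0 for none, beside 16.8% and 15.5% of all genes. Their median of 1639 reads, against 416 for all genes, narrows these intervals. Bag2, an exchange factor that inhibits the ligase Stub1, was the only gene of the partner lists at least 1.5-fold different, with 0.69 (0.13 to 1.32) from 31 reads in MHs and 126 in SHs. Fkbp4, a Hsp90 co-chaperone of steroid receptors, had 142 and 155 RPM, with 0.13 (0.06 to 0.19), and St13 (Hip), which keeps Hsp70 bound to its client, had 110 and 131, with 0.26 (0.18 to 0.34). Among the 8 subunits of the cytosolic chaperonin TRiC, 6 lay above 0, with a median of 0.05, from -0.03 for Cct6a to 0.27 for Cct2. The interval lay above 0 for 3 and below 0 for none, beside 16.8% and 15.5% of all genes. The TRiC genes had a median of 4362.5 reads against 416, which narrows their intervals. The TRiC subunits with the most reads were Cct5, with 96.6 RPM in MHs and 111 in SHs, and Cct2, with 68.1 and 82.1.

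**Figure D4:**
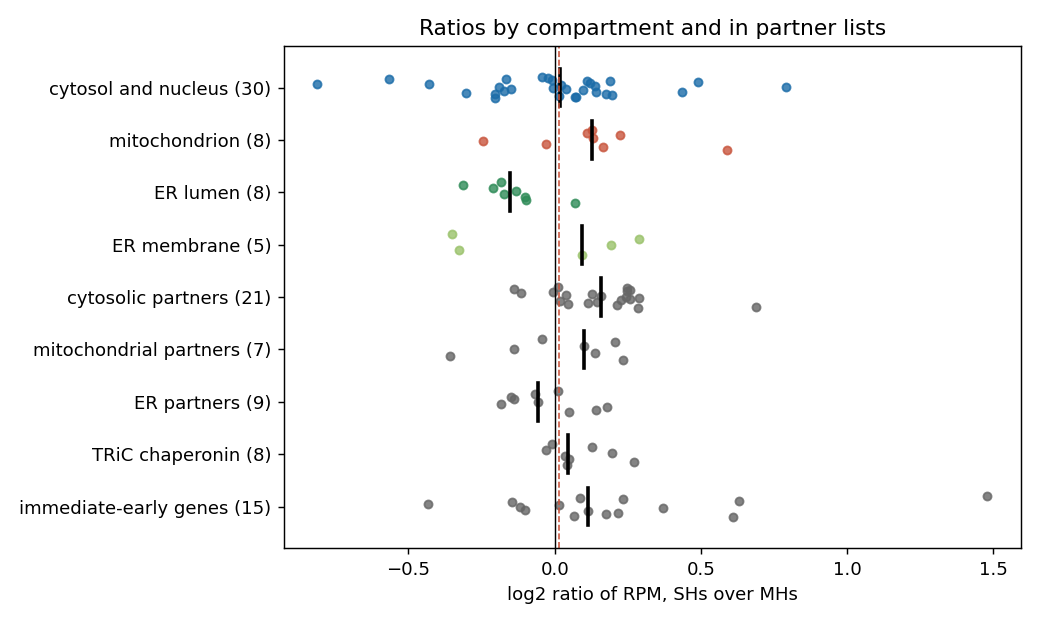
Log2 ratio of RPM in SHs over MHs for each gene with at least 10 reads, by chaperone compartment (coloured) and in lists of partner and immediate-early genes (grey), with the number of genes in parentheses. Black bars are medians, from -0.15 in the ER lumen to 0.16 in the cytosolic partners, and the dashed line is the median of all genes, 0.02.

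By family, taken by symbol, the medians were -0.19 over the 3 Hsp90 genes and 0.01 over the 14 Hsp70 and Hsp110 genes. They were -0.09 over 4 small heat shock proteins (Hspb symbols) and 0.12 over the chaperonin pair. For the DnaJ genes they were 0.07 over 4 Dnaja, 0.01 over 9 Dnajb and 0.01 over 26 Dnajc genes. The signs of the Hsp70 and Hsp110, Dnajb and Dnajc medians changed with the number of added reads or the read minimum. The Hsp90 family thus held 2 genes below and 1 above 0, each with an interval clear of 0, and the other families held both directions, except for the chaperonin pair. Among the Hspb genes only Hspb11 lay above 0, at 0.10 (-0.43 to 0.68), and it was assigned to other or uncertain sites.

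Of the genes with no clear compartment, Dnajc6 and Hspa12b were past 2-fold, and both had few reads. Dnajc6 (auxilin), which uncoats clathrin vesicles with Hspa8, had 6 reads in MHs and 53 in SHs, or 0.353 and 1.25 RPM, a ratio of 1.72 (0.61 to 3.33). Hspa12b, a distant Hsp70 known from endothelial cells, had 11 reads in MHs and 1 in SHs, or 0.648 and 0.0236 RPM, a ratio of -4.26 (-10.21 to -1.996). Each passed the minimum of 10 reads through the library in which it was higher. The endothelial marker list given above moved in the same direction as Hspa12b, with ratios from -6.82 for Dnase1l3 to -2.82 for Stab2, and its part in the value of Hspa12b was not tested. In contrast, Dnajc5 (cysteine string protein), Dnajc13, a protein of endosomes, and Dnajc22, which had 76.2 RPM in MHs and 72.8 in SHs, had ratios of -0.08 (-0.19 to 0.04), -0.15 with an interval that ended just below 0, and -0.07 (-0.16 to 0.03).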

How the data were processed

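Poly(A) RNA of MHs and SHs, 1 library each, was read on an Ion Proton. The authors deposited whole read counts per gene symbol, without normalization. Their methods describe trimming, alignment to mm10 in CLC Genomics Workbench and RPKM, and the program and annotation behind the counts are not given in the sources used here. Multi-mapped reads were allowed there, so paralogs are uncertain.

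The 72 genes, the gene lists and the rules below were chosen with earlier results of these data known. RPM, log2 ratios with 0.5 added reads and Clopper-Pearson intervals were computed over all symbols with Python 3.11.15, numpy 2.4.6, pandas 2.3.3 and scipy 1.17.1, and genes under 10 reads in all were left without a ratio. Here RPKM divides by reads counted on genes and by the union of exons in GENCODE M21. Ratios were given as 2-fold or 1.5-fold only with an interval on the same side of 0. The calculation was tested on simulated counts. Plots were made with matplotlib 3.10.9. With 16979136 and 42356444 counted reads, precision is set by the reads of each gene.

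Genes named are those at least 1.5-fold different with at least 200 reads, the 5 with the most reads in the cytosol, mitochondrion and ER lumen, the 2 lowest and 2 highest ratios of each compartment, the HSF1 targets, and genes with 3 reads or fewer in 1 library but 10 in the other. From the partner lists, genes at least 1.5-fold different and the 2 with the most reads were named. Other genes, such as Dnajc6, Dnajb2, Dnajc22, Grpel1, Grpel2 and Fos, were chosen after their values were seen. Scaling by edgeR TMM (version 4.0.16, R 4.3.3), DESeq2 size factors (1.42.0) and totals without the top 10 genes by reads, adding 2 reads, and other read minimums and folds were the alternatives. Leaving single genes out of the sums was added after seeing the data. Protein sequences were not analysed here.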

Additional observations from a re-analysis of the deposited data

How the results depend on the processing

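Scaling by TMM, by DESeq2 size factors or by totals without the top 10 genes by reads raised every log2 ratio by 0.0096, 0.0091 and 0.032, and changed whether the interval included 0 for 1, 1 and 5 of 62 genes. Dnajc13 came to include 0 under all 3, and Dnajb11, Dnajb12, Dnajb4 and Hspa4l came above 0 under the last, where Hspa5 moved to -0.15. With 2 reads added, 0 of 62 intervals changed side, and the median of the cytosol and nucleus went from 0.02 to -0.0003. The ratios of that compartment then lay above 0 for 15 genes and below 0 for 15. The directions of the ER lumen and mitochondrial medians held under each of these 4 alternatives.

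Together with the ER lumen, the ER membrane genes had a median of -0.13. At least 2-fold higher were 0 genes with a minimum of 200 reads and 0 at 4-fold, and 3 at 1.5-fold, which added Dnaja3 and Dnajc9. At least 2-fold lower were 0 with a minimum of 50 or of 200 reads, and 2 at 1.5-fold, which added Hspa1a. The share of reads was 0.231% in MHs and 0.234% in SHs without Hspa5, Hsp90b1 and Hsp90ab1, and 0.638% and 0.626% of the reads without the top 10 genes. The summed ratio was 0.16 for the mitochondrion without Dnaja3, and -0.0072 for the cytosol and nucleus without Hsp90ab1, a reversal of sign. Among the family medians, that of the small heat shock proteins was -0.29 with a minimum of 200 reads, which left fewer genes. That of Hsp70 and Hsp110 was -0.10 with 2 reads added and -0.01 with a minimum of 50 or 200 reads, that of Dnajb -0.04 with no minimum beyond 1 read, and that of Dnajc -0.0012 with 2 reads added. The cytosolic median was -0.02 over the Hsp genes alone. No paired analysis was possible because each cell type has a single library.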
